A study of Homo sapiens with 6 samples.

Results

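In 505 regions of the genome of 293T cells, trimethylated histone H3 lysine 79 (H3K79me3) was called in KDM2B-knockdown and in control cells, whereas the dimethylated form (H3K79me2) was called in control cells only. The regions were found by merging the peak lists of 4 chromatin immunoprecipitation libraries wherever peaks on chromosomes 1 to 22, X and Y shared at least 1 bp. That gave 8899 merged regions, of which 505 (5.67%) had a peak in the knockdown H3K79me3, control H3K79me3 and control H3K79me2 lists and none in the knockdown H3K79me2 list. They are called member regions here. They are 9.97% of the 5066 regions with H3K79me3 in both lines. The regions were chosen by the presence or absence of these peaks, so every H3K79me2 difference between the lines, and the presence of H3K79me3 in both, is a description and not a finding.

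The cells were 293T, which derive from human embryonic kidney and express the large T antigen of SV40. One line stably expressed a short hairpin RNA against KDM2B (shKDM2B, knockdown) and the other a control hairpin (shCTL, control). Each group, H3K79me2 and H3K79me3 in knockdown and in control cells, had 1 library, and each line also gave an input library. Per the labels, each mark was precipitated with 1 antibody, the same lot in both lines. No value here gives the level of KDM2B; that it was reduced is taken from the labels, which do not say whether a line is 1 clone. With 1 library per group there was no replicate check and no test between lines. Intervals of RPM and of tag ratios are exact 95% intervals that cover counting error only. Those of shares are exact binomial 95% intervals that treat regions as independent, although all regions share the same libraries. Neither kind covers differences between repeated libraries.

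H3K79 methylation is laid down by the methyltransferase DOT1L, which acts together with transcription elongation factors. Its di- and trimethylated forms lie over transcribed genes, mainly from the start of the gene into its body, and they often coincide. KDM2B is a JmjC-domain protein that also recruits a variant Polycomb complex to CpG islands. The study asked whether KDM2B removes methyl groups from H3K79. The positions below are those of hg19. An annotation and sequence of that build were not used here, so the regions are named by position and not by gene.

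Depth and calling bear on a missing peak. Knockdown H3K79me2 had 13144744 tags after removal of duplicates, the fewest of the 4 ChIP libraries, against 16018517 in control H3K79me2, a ratio of 0.821. Knockdown H3K79me3 had 16389356 tags and control H3K79me3 17044011. Per the file headers, the caller estimated a fragment of 210 bp for knockdown H3K79me2 and of 148 bp for control H3K79me2, and took the regional background over 10000 bp of the same library. Each peak has a score, 10 times the negative log10 of the caller's p, and a fold enrichment over the caller's local background; both are the authors' values. The lowest score in every list was about 50. A missing peak means that nothing at that place passed the limit, and not a tag count of 0.

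The member regions were long. Their length had a median of 5921 bp with quartiles at 3682 and 7338 bp, against 4011.5 bp with quartiles at 2799 and 5596 bp in the 3922 regions that had both marks in both lines. Of the member regions 160 (31.7%, 95% interval 27.6 to 35.9%) were longer than 7 kb, against 385 of the 3922 regions (9.82%). Other sets with H3K79me3 in both lines were alike in this. The share was 33.5% (181 of 541) without H3K79me2 in either line and 37.8% (37 of 98) with H3K79me2 in knockdown only. In 485 of the 505 each of the 3 lists contributed 1 peak. The control H3K79me2 peaks nearly filled the regions, with a median coverage of 99.6% of the length. Knockdown H3K79me3 peaks covered a median of 82.9% and control H3K79me3 peaks 73.4%. The regions took up 2.76 Mb of the 32.3 Mb in all merged regions. They held 510 control H3K79me2 peaks, which is 7.47% of that list, and 14.0% of the tags in the peaks of that list.

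Dimethylation in control cells was about as dense in the member regions as in those with both marks in both lines, yet it stood out less from its surroundings. Control H3K79me2 in the member regions had a median of 5.17 RPM (tags in peaks for every 1000000 filtered tags) per kb of peak, with quartiles at 3.91 and 7.32. In the regions with both marks in both lines it had a median of 5.30 with quartiles at 3.92 and 7.49. The score was much lower in the member regions, with a median of 114 against 295, and so was the fold enrichment, with a median of 4.05 against 5.80. The sets differed in length, and within classes of control H3K79me2 length the gap in fold varied. The fold medians were 4.56 against 7.97 at 1 to 2 kb, 4.60 against 6.915 at 2 to 3 kb and 3.985 against 5.60 at 3 to 5 kb. They were closer at up to 1 kb (11.39 against 11.47), at 5 to 7 kb (4.03 against 4.41) and over 7 kb (3.655 against 3.89). Counted by tags, the member regions were the richer ones: a median of 28.8 RPM of control H3K79me2 lay in a member region and 18.2 RPM in a region with both marks in both lines.

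**Figure D1:**
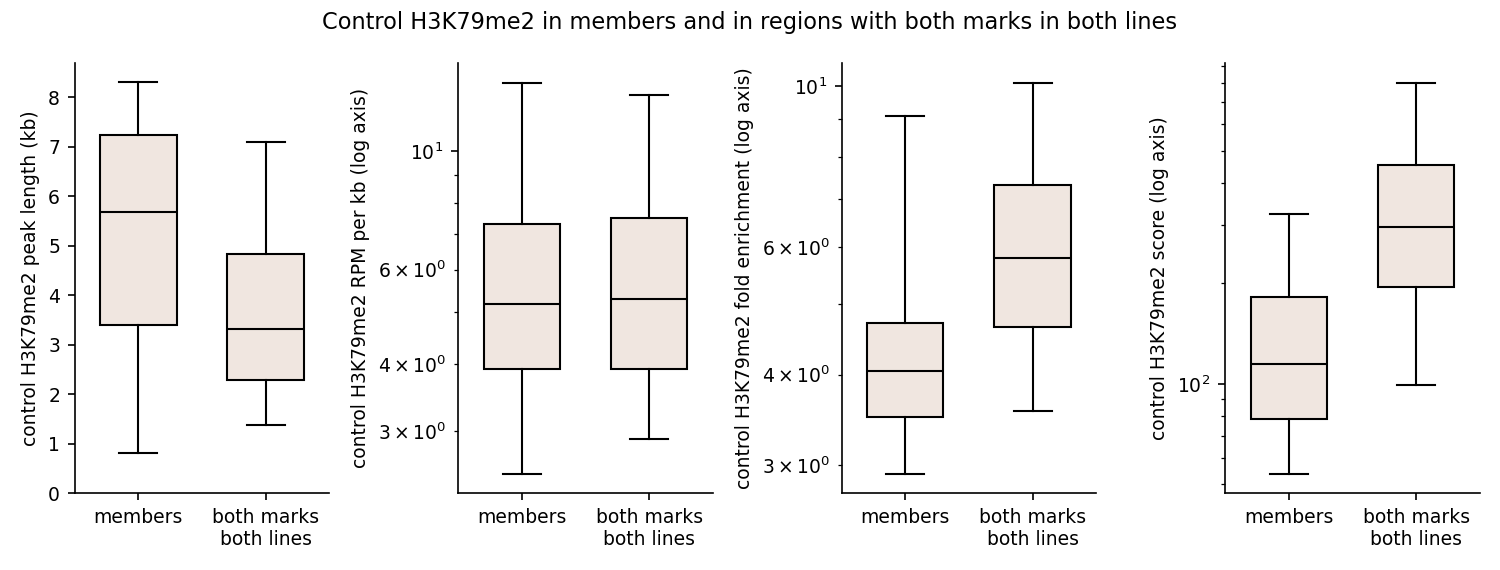
Length, RPM per kb, fold enrichment and score of control H3K79me2 in the 505 member regions (left in each panel) and the 3922 regions with both marks in both lines; boxes span the quartiles with the median as a line, whiskers reach the 5th and 95th percentiles, and all axes but the first are logarithmic. The member regions were longer (median 5680 against 3327.5 bp of peak), nearly equal in RPM per kb (5.17 against 5.30) and lower in fold enrichment and score.

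Denser member regions were also longer (Spearman's rho 0.58 across the 505 regions, as a description), so density was also read within classes of control H3K79me2 length, and there the member regions were the weaker ones. At 5 to 7 kb the median control H3K79me2 density was 5.31 RPM per kb in 145 member regions and 6.92 in 685 regions with both marks in both lines. At 3 to 5 kb it was 4.58 RPM per kb in 102 member regions and 5.83 in 1337 others, and over 7 kb it was 7.32 in 148 member regions and 8.83 in 218 others. Control H3K79me3 was lower too, at 3.54 RPM per kb in member regions against 5.24 in the others at 5 to 7 kb. Knockdown H3K79me3 followed, at 5.65 against 7.41. At 1 to 2 kb the control H3K79me2 densities were close, 3.59 in 29 member regions against 3.75 in 603 others. The quartiles of the compared sets overlapped in each of these classes.

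How often knockdown H3K79me2 was missing went with the length and score of the control peak. Of the 4427 regions with control H3K79me2 and with H3K79me3 in both lines, 11.4% were member regions, a share that the rule itself sets. Of those with 1 to 2 kb of control H3K79me2 peak, 4.59% lacked the knockdown peak, and of those with 2 to 3 kb 4.60%. The share was 7.09% at 3 to 5 kb, 17.5% at 5 to 7 kb and 40.4% (148 of 366 regions, 95% interval 35.4 to 45.7%) over 7 kb. At up to 1 kb it was 28.4% (33 of 116, 95% interval 20.5 to 37.6%). Very short and very long control peaks were the ones most often without a knockdown peak.

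By score the share was lower in each higher quartile. It was 32.2% in the quartile of regions with the lowest control H3K79me2 score, 9.39% and 3.07% in the next quartiles, and 0.903% in the highest, where 10 of 1107 regions were member regions. Length and score each went with the share when the other was held: among regions in the lowest score quartile it was 15.3% at 1 to 2 kb and 44.9% over 7 kb, and at 5 to 7 kb it was 36.7% in the lowest score quartile and 2.53% in the highest. Across quartiles of control H3K79me2 density, with length not held, the share stayed between 10.4% and 12.8%, although at a given length the member regions were the less dense ones. The part of calling in the absence of these peaks was not tested.

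**Figure D2:**
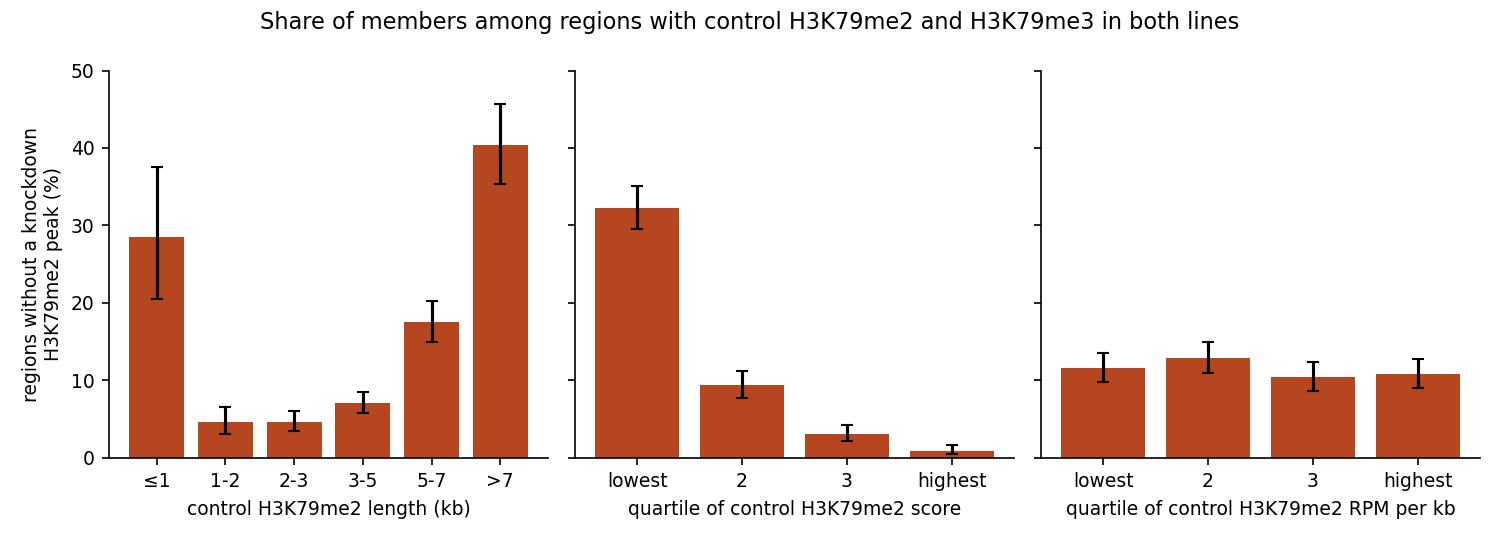
Percentage of regions without a knockdown H3K79me2 peak among the 4427 regions with control H3K79me2 and with H3K79me3 in both lines, by length, by quartile of score and by quartile of RPM per kb of control H3K79me2; error bars are exact binomial 95% intervals. The percentage is 40.4% over 7 kb, 32.2% in the lowest score quartile and 0.903% in the highest, and lies between 10.4% and 12.8% in each density quartile, where length is not held.

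The regions that had the strongest control calls show what the pattern looks like at its clearest. The highest control H3K79me2 score, 786, was at chr4:56261855-56268533. There knockdown H3K79me3 had 60.3 RPM, control H3K79me3 54.0 RPM and control H3K79me2 62.9 RPM (95% interval 59.1 to 66.9), and the nearest knockdown H3K79me2 peak lay 46.5 kb away. At chr21:44491152-44496082 the control H3K79me2 peak had a score of 753 and 77.7 RPM, beside 71.3 RPM of H3K79me3 in knockdown and 57.2 RPM in control cells. The region at chr5:32585502-32592024 had 59.9 RPM of control H3K79me2 at a score of 701, with 58.9 RPM of H3K79me3 in knockdown and 50.7 RPM in control cells. In these 3 regions control H3K79me2 had a higher RPM than H3K79me3 in either line, with the smaller gap to knockdown H3K79me3. The antibodies need not share a scale.

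The next of these regions, chr17:27046711-27051544, had 68.9 RPM of H3K79me3 in knockdown cells, 60.3 RPM of H3K79me3 in control cells and 68.7 RPM of H3K79me2 in control cells. At chr3:50125643-50130649, H3K79me3 reached 61.4 RPM in knockdown and 34.7 RPM in control cells, and control H3K79me2 52.9 RPM. The control scores of these 5 regions, chosen for being the highest among the member regions, lay between 570 and 786. The median score of the whole list was 180 for control H3K79me2 and 143 for knockdown H3K79me2. No knockdown H3K79me2 peak lay within 10 kb of any of them; the nearest was 18.98 kb away, beside the chromosome 17 region.

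The member regions richest in control H3K79me2 tags were another group, long and, in 3 of the 5 richest, with scores close to the threshold of 50. The richest, chr1:156714403-156723568, held 206 RPM of control H3K79me2 (95% interval 199 to 213) over 9166 bp, yet its score was 56.1 and its fold enrichment 2.38. Knockdown H3K79me3 there was 212 RPM at a score of 90.5, and control H3K79me3 166 RPM at a score of 94.2. A knockdown H3K79me2 peak lay 3.30 kb away. At chr17:74552438-74561065 control H3K79me2 had 167 RPM at a score of 110, and at chr22:38893534-38902540 it had 161 RPM at a score of 53.6. H3K79me3 at the chromosome 22 region was 152 RPM in knockdown and 137 RPM in control cells.

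At chr1:226250170-226259172 control H3K79me2 reached 160 RPM with a score of 50.8, and a knockdown H3K79me2 peak lay 12.1 kb away. The region at chr19:40328704-40337369 had 160 RPM and a score of 202. All 5 had fold enrichments for control H3K79me2 of 2.38 to 3.21, under the median of 4.05 for the member regions. Their control H3K79me2 peaks were between 8176 and 9166 bp long, nearly as long as the 10000 bp over which the caller took its regional background; the part of that length in their low folds was not tested.

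**Figure D3:**
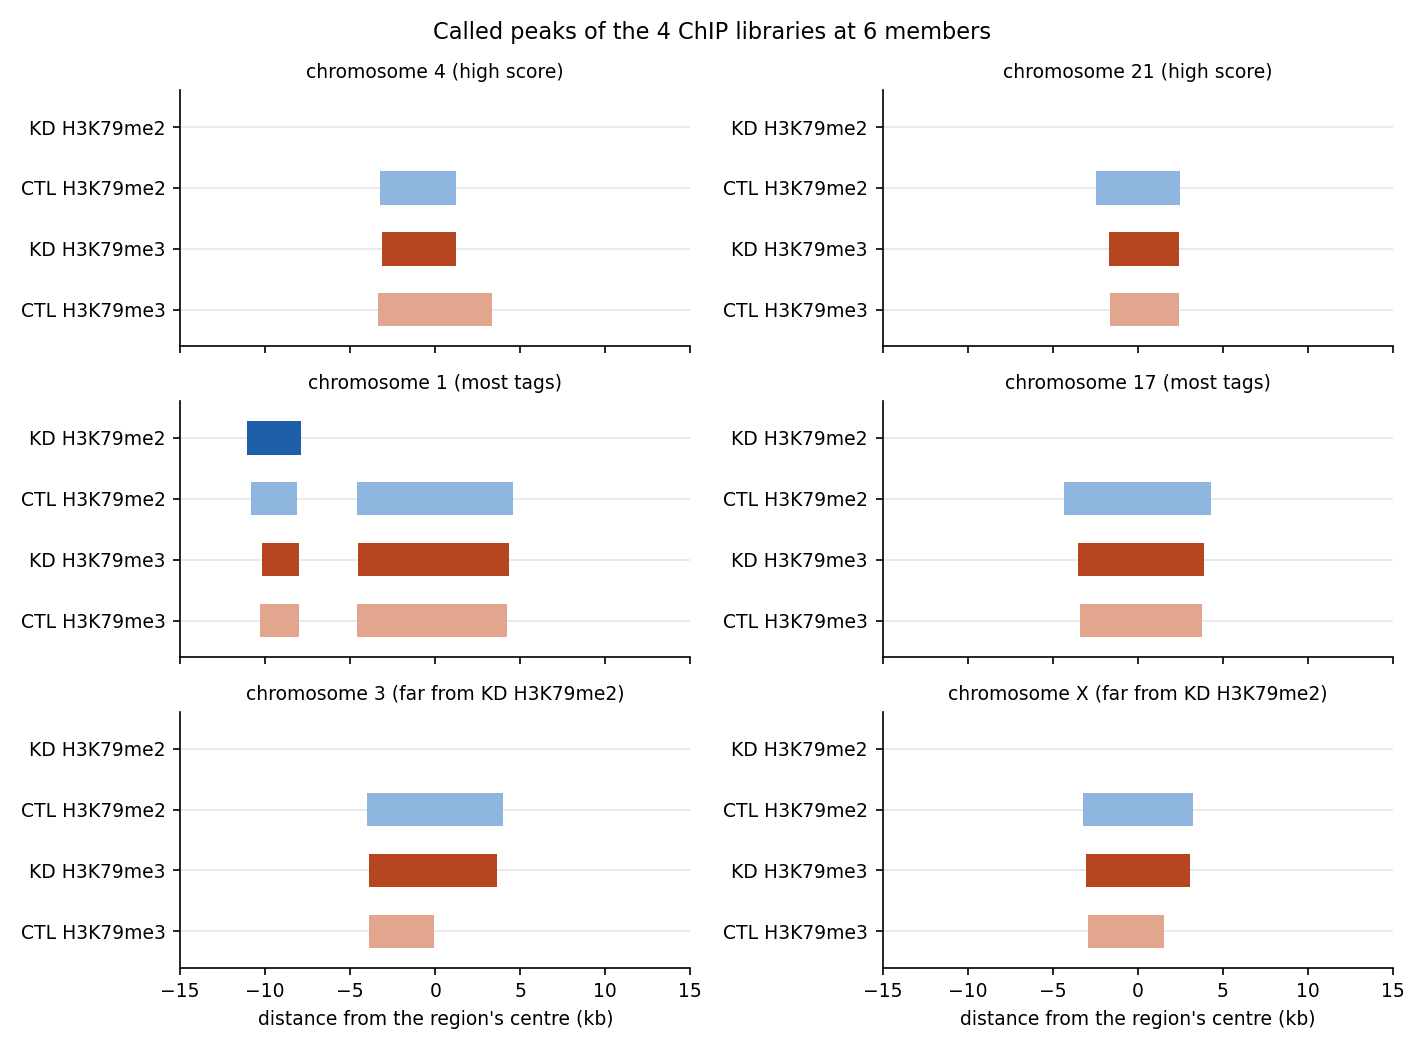
Called peaks of the 4 ChIP libraries around the centres of 6 member regions, with distance from the centre in kb on the horizontal axis and 1 row per library (KD, knockdown; CTL, control); the top pair has the highest control H3K79me2 scores, the middle pair the most control H3K79me2 tags, and the bottom pair lies farthest from any knockdown H3K79me2 peak. The knockdown H3K79me2 row is empty within 15 kb of the centre in 5 of the 6 and holds a peak 3.30 kb beside the chromosome 1 region.

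At the edge of the rule, scores lay close to the threshold whatever the tag count. Just inside, the lowest control H3K79me2 scores were 50.16 at chr4:190943186-190943999, where the peak had 11 tags, 50.31 at chr2:113299685-113308520, with 1585 tags, and 50.42 at chr1:25071883-25079761, with 517 tags. Just outside, the regions with the lowest knockdown H3K79me2 score beside the 3 other peaks scored 50.03 at chr1:39456513-39465086, 50.09 at chr19:54957076-54965431 and 50.15 at chr3:121531562-121536623. At the first of these outer regions H3K79me2 had 68.6 RPM in knockdown and 84.2 RPM in control cells. The outer chromosome 19 region had 63.8 RPM of H3K79me2 in knockdown cells, spread over 8356 bp, and 58.7 RPM in control cells, in 4211 bp. Its score was 632 in control cells.

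Where both marks were called in both lines, H3K79me2 was itself somewhat lower per kb in the knockdown library. Its median log2 ratio per kb, knockdown over control, was -0.20 with quartiles at -0.35 and -0.03 over the 3922 regions. By summed tags the median was -0.09, with quartiles on both sides of 0, at -0.28 and 0.15. Knockdown H3K79me2 was called over a longer stretch in these regions, a median of 3772.5 bp against 3327.5 bp in control cells. The part of called length in the ratio per kb was not tested. The member regions have no such value, because no knockdown H3K79me2 tags are listed there.

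The distance to the nearest knockdown H3K79me2 peak varied widely among the member regions. The nearest knockdown H3K79me2 peak lay at a median of 74843 bp, with quartiles at 23929 and 215937 bp. It was within 1 kb of 22 member regions (4.36%), within 10 kb of 63 (12.5%, 95% interval 9.72 to 15.7%) and within 100 kb of 296 (58.6%). Of the 541 regions with H3K79me3 in both lines and no H3K79me2 in either, 4 (0.739%, 95% interval 0.202 to 1.88%) had a knockdown H3K79me2 peak within 1 kb and 37 (6.84%, 95% interval 4.86 to 9.30%) within 10 kb. Such a peak was thus more often close to a member region, at both distances. The neighbouring peaks of the 63 member regions were 62 different peaks with a median length of 2792 bp and a median score of 97.1, against 2985 bp and 143 in the whole knockdown H3K79me2 list.

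Some member regions lay far from any H3K79me2 call of the knockdown library. The farthest, chr3:87276320-87284308, was 6.41 Mb away from one. It had 40.2 RPM of H3K79me3 in knockdown cells, 14.4 RPM of H3K79me3 in control cells and 40.1 RPM of H3K79me2 in control cells, the last at a score of 52.8. At chrX:122993954-123000412, which was 3.23 Mb away, H3K79me3 had 35.1 RPM in knockdown and 20.6 RPM in control cells, and control H3K79me2 had 38.95 RPM at a score of 163. The region at chr9:119449614-119452541, 2.81 Mb away, held 10.7 RPM of H3K79me3 in knockdown cells, 3.46 RPM in control cells and 11.7 RPM of control H3K79me2. Trimethylation had a higher RPM in the knockdown library at each of the 3, as it did in 92.9% of the 5066 regions with H3K79me3 in both lines.

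**Figure D4:**
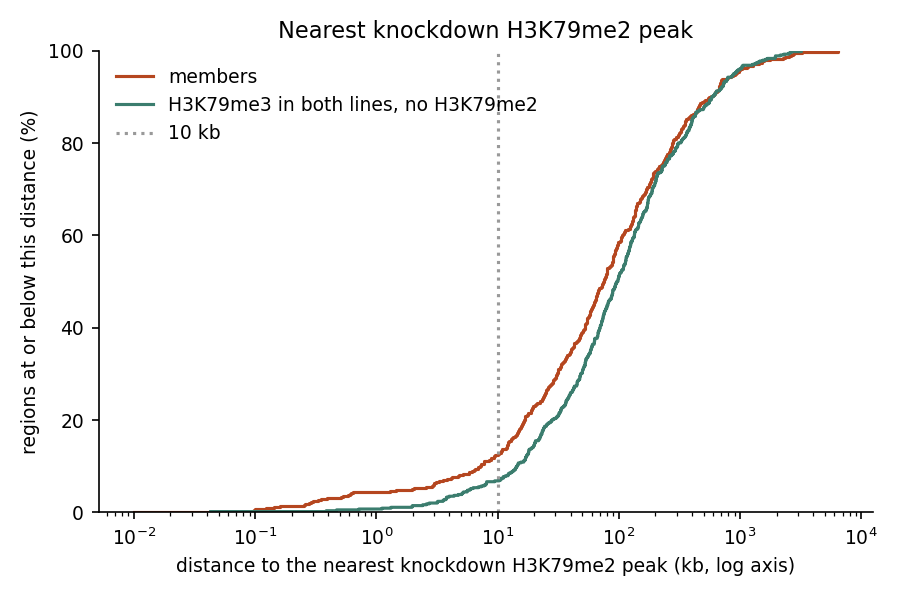
Percentage of regions whose nearest knockdown H3K79me2 peak lies at or below the distance on the logarithmic horizontal axis (kb), for the 505 member regions and the 541 regions with H3K79me3 in both lines and no H3K79me2. At 10 kb, the dotted line, the member regions stand at 12.5% and the other regions at 6.84%.

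Trimethylation was called in both lines by the rule, but its RPM was not equal between them. In the member regions H3K79me3 had a median of 5.23 RPM per kb in knockdown cells (quartiles 3.94 and 7.66) and 3.30 RPM per kb in control cells (quartiles 2.36 and 5.38). The median log2 ratio per kb, knockdown over control, was 0.59 with quartiles at 0.37 and 0.76. Knockdown was the higher in 484 of the 505 regions, against 96.9% of the 5066 regions with H3K79me3 in both lines. The name of stable H3K79me3 therefore holds for the calls and not for the levels. Summed tags gave a median of 24.5 RPM per region in knockdown and 12.6 RPM in control cells, and a median log2 ratio of 0.68; these sums follow the called length. By summed tags knockdown was the higher in 467 member regions, against 92.9% of the 5066 regions.

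The higher RPM of H3K79me3 in the knockdown library was shared by the whole set of 5066 regions. The part of a difference between whole libraries was not tested. Per kb the knockdown value exceeded the control value beyond counting error in 410 member regions (81.2%, 95% interval 77.5 to 84.5%), against a background of 79.8% over all 5066 regions. It was lower beyond counting error in 3 member regions, against a background of 0.73%. By summed tags 420 member regions (83.2%) were higher, background 80.8%, and 23 (4.55%) were lower, background 2.7%. In the regions with both marks in both lines the median log2 ratio per kb was 0.55, with quartiles at 0.37 and 0.76, and the member median lay 0.037 above it. The sign of that small gap turned when the peak lists were limited to higher scores or folds: it was -0.041 with the higher-scoring 50% of each list and -0.000350 with fold enrichments of at least 5.67.

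**Figure D5:**
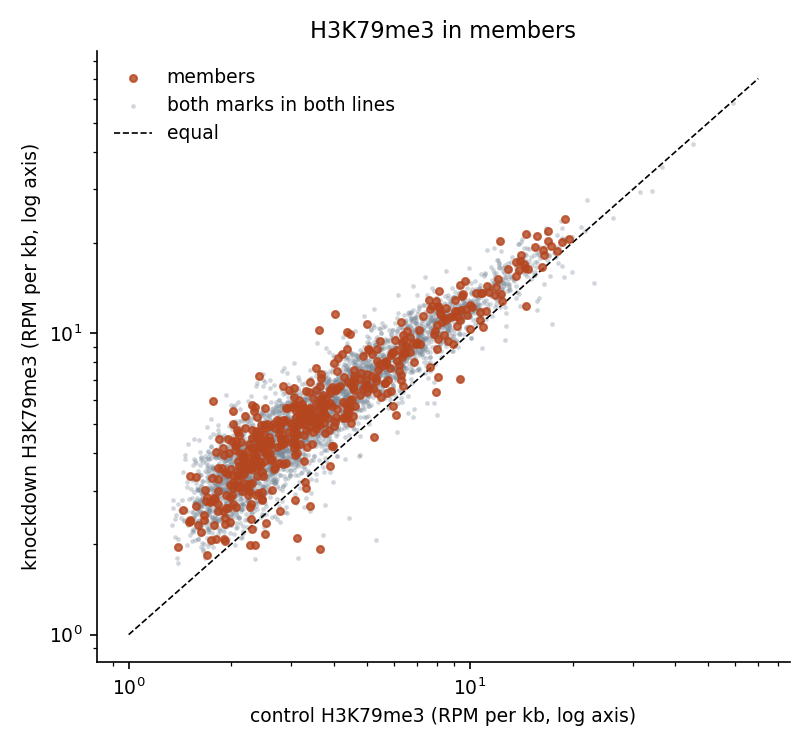
H3K79me3 in RPM per kb of peak in knockdown (vertical) and control cells (horizontal), both on logarithmic axes, for the 505 member regions and, in grey, the 3922 regions with both marks in both lines; the dashed line marks equal values. Of the member regions 484 lie above the line, at a median log2 ratio of 0.59, within the cloud of the other regions.

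The H3K79me3 ratio was also read within classes of length, where the gap between the sets varied. At up to 1 kb of control H3K79me2 the median log2 ratio per kb was 0.38 in 33 member regions and 0.21 in 83 regions with both marks in both lines, and by summed tags it was -0.21 and -0.27. At 1 to 2 kb the medians of summed tags were 0.63 and 0.81, lower in the member regions, and per kb 0.67 and 0.65. At 3 to 5 kb of control H3K79me2 the median log2 ratio of summed tags was 0.92 in member regions and 0.61 in regions with both marks in both lines, and per kb it was 0.65 against 0.54. At 5 to 7 kb the medians of summed tags were 0.83 and 0.51, and per kb 0.59 and 0.47. Over 7 kb the values per kb were 0.51 and 0.44, and at 2 to 3 kb 0.63 and 0.62. The less dense regions had the larger ratios in both sets. Spearman's rho of control H3K79me2 density with the H3K79me3 log2 ratio per kb was -0.27 across the 505 member regions and -0.30 across the 3922 others. That ratio divides by control H3K79me3 density, which itself had a rho of 0.91 and 0.92 with control H3K79me2 density in these sets. A negative rho can therefore follow from how the ratio is formed. The member regions were also the less dense ones within each length class, by their median control H3K79me2 density, and the part of density in these ratios was not tested.

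H3K79me3 peaks were longer in the knockdown library in 328 member regions (65.0%, 95% interval 60.6 to 69.1%), against a background of 59.8%. Their median length was 4308 bp in knockdown and 3537 bp in control cells. The caller's estimated fragment was 126 bp in the knockdown and 180 bp in the control H3K79me3 library, and its part in these lengths was not tested. The authors' fold enrichment, which is set against the background within each library, was larger in knockdown cells in 276 member regions (54.7%), where the background was 64.6%. Its medians were 4.52 in knockdown and 4.41 in control cells.

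The largest difference of H3K79me3 per kb, among 460 member regions with 1 H3K79me3 peak in each line and off input peaks, was at chr12:121900336-121904822. Knockdown H3K79me3 had 26.8 RPM over 4487 bp there, control H3K79me3 3.34 RPM over 1891 bp, and control H3K79me2 17.1 RPM over 4311 bp, a log2 ratio of H3K79me3 per kb of 1.76 (counting SE 0.20). Its place on chromosome 12 may put it in or beside KDM2B, the target of the hairpin; this was not settled, because an hg19 annotation was not used here. At chr15:75866822-75871533 H3K79me3 had 33.9 RPM in knockdown and 8.68 RPM in control cells, with a log2 ratio per kb of 1.58. The next, chr7:5457712-5463502, had 58.03 RPM in knockdown and 18.5 RPM in control cells, and its ratio was 1.53.

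At the other end the values per kb were lower in knockdown cells where a longer peak was called. Among the same 460 regions, the lowest ratio, -0.41 (counting SE 0.09), was at chr3:23953069-23961309, from 7.04 RPM per kb over 6093 bp in knockdown and 9.35 RPM per kb over 2597 bp in control cells; over all 505 member regions the lowest was -0.91. By summed tags the chromosome 3 region was higher in knockdown cells, 42.9 RPM in knockdown against 24.3 RPM in control cells. At chr21:45527057-45534886 the ratio per kb was -0.32 and the log2 ratio of summed tags 1.05. At chr1:154947204-154954972 they were -0.25 and 0.24, and a knockdown H3K79me2 peak lay 618 bp away. In each of the 3, summed tags and tags per kb gave opposite signs.

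The marks varied together from one member region to the next. Across the 505 regions, Spearman's rho of control H3K79me2 with knockdown H3K79me3, both in RPM per kb, was 0.94, and with control H3K79me3 it was 0.91; the regions share their libraries, and both values of a pair come from the same stretch of genome, with its base composition. In the 3922 regions with both marks in both lines these were 0.93 and 0.92. The log2 ratio of H3K79me2 to H3K79me3 per kb in control cells had a median of 0.56 in the member regions and 0.59 in the others; the antibodies need not share a scale. The summits lay close together in most member regions, though less often than in the others. In 485 regions with 1 peak in each list the control H3K79me2 summit lay a median of 217 bp from the knockdown H3K79me3 summit and 232 bp from the control H3K79me3 summit, against 162 and 173 bp in 3770 regions with both marks in both lines. The summits were within 500 bp of each other in 77.1% and 72.8% of the member regions, against 84.5% and 83.5% of the others.

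The member regions lay on every chromosome examined, but the 3 on chromosome Y, of 12 regions there, were all on input peaks. Among regions with control H3K79me2 and with H3K79me3 in both lines, the share of member regions was 11.4% on all chromosomes together. Apart from chromosome Y, it was highest on chromosome 6, at 16.4% (33 of 201, 95% interval 11.6 to 22.3%), and 16.3% on chromosome 13 (14 of 86). It was lowest on chromosome 8, at 5.41% (8 of 148, 95% interval 2.36 to 10.4%), and 6.07% on chromosome 19 (21 of 346). Chromosome 1 had the largest number of member regions, 53 of 442 (12.0%).

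A small number of member regions lay on peaks that were also called in an input library, and most of these were short. There were 27 (5.35%, 95% interval 3.55 to 7.68%), against a background of 4.22% of the 5066 regions with H3K79me3 in both lines. Of the 33 member regions with up to 1 kb of control H3K79me2 peak, 19 were among them. These 33 had a median control H3K79me2 density of 2.27 RPM per kb, and a median fold enrichment of 11.4. Their H3K79me3 log2 ratio had a median of -0.21 by summed tags and 0.38 per kb. The 3 member regions on chromosome Y were all on input peaks.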

How the data were processed

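The submitters' processing notes name Bowtie2, with no version, and the build hg19. Per the file headers, the authors called peaks in each library alone with MACS 1.4.2, with no control file, a p cutoff of 1e-05 and at most 1 tag per position. The deposited tags per peak are whole-number counts, not normalized. Fold enrichment, as deposited, is a ratio of tags to the background the caller found nearby. The deposited column headed as a negative log10 p begins near 50 at that cutoff, so it holds 10 times that quantity and is used as a score.

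From these files, peaks of the 4 ChIP lists were merged with Python 3.11.15, pandas 2.3.3 and numpy 2.4.6, which was checked against bedtools 2.31.1 and tested on simulated data. Tags of a library were summed over its peaks in a region, divided by its filtered tags and given as RPM; values per kb divide by the summed peak length. Shares have exact Clopper-Pearson 95% intervals and RPM exact Poisson ones (scipy 1.17.1). A ratio differed beyond counting error where the exact binomial interval of its tags left out equality. With 1 library per group no test was made. The member regions and the comparisons were chosen with earlier results of these data known. Named regions follow a rule: the 5 with the highest control H3K79me2 score, the 5 with the most control H3K79me2 tags, the 3 highest and 3 lowest H3K79me3 ratios per kb among 460 with 1 H3K79me3 peak in each line and off input peaks, the 3 farthest from a knockdown H3K79me2 peak, and 3 on each side of the threshold. The 3 on chromosome Y were singled out after their values were seen. Comparisons by gene had been planned and were not made, since an hg19 annotation was not used here. Alternatives were 8 settings of the peak lists and their merging, and 2 limits on control H3K79me2 length added after the data were seen.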

Additional observations from a re-analysis of the deposited data

How the results depend on the processing

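Of 67 values recomputed under other settings, 52 stayed within 1.5 times the count or within the 95% interval of the value reported. For medians that interval came from ranks over regions, and for a difference of medians from the outer limits of both, which is not exact. The count of member regions, 505 in the full lists, was 357 to 501 under all settings but the higher-scoring 50% of each list, where it was 275. Where a setting limited the lists, the rule was applied anew, so regions could enter as well as leave. At a fold limit of 5.67 most of the 505 left, since the upper quartile of their control H3K79me2 fold was 4.72. How many of the 505 stayed under each setting was not counted. With the higher-scoring 50% of each list the H3K79me3 log2 ratio was 0.53 by summed tags and 0.46 per kb. The gap of its median per kb to regions with both marks in both lines was reversed to -0.041. There 7.27% of the member regions had a knockdown H3K79me2 peak within 10 kb. Keeping peaks with a fold enrichment of at least 5.67, the lists' median, turned the gap to -0.000350 and gave 9.35% within 10 kb. With most of the 505 gone, values under this limit describe another set of regions and no change in the 505. Control H3K79me2 peaks of that set had a median of 3103.5 bp, against 5635.5 bp for the member regions of the full lists. Member regions then made up 19.2% of the regions with H3K79me3 in both lines, a share of 9.97% in the full lists. That share was 8.89% with 5597 peaks from each list, 8.10% with scores scaled to the shallowest ChIP library and 8.72% where no knockdown H3K79me2 peak was allowed within 10 kb. Member regions were 5.15-fold as many as the 98 regions with H3K79me2 in knockdown only, and 3.29-fold with equal lists and 3.27-fold with scaled scores. Merging peaks within 1 kb gave 8.20% within 10 kb. Beyond the fewer peaks admitted, the cause was not tested. The alternatives on gene models were not run, and the share within 10 kb is 0 by construction where such peaks were not allowed. No paired analysis was possible because each group has 1 library. With control H3K79me2 scores scaled to the depth of the knockdown library, 444 of the 505 stayed at 50 or more; how many missing knockdown peaks depth accounts for was not tested.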

Other observations

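The opposite arrangement, H3K79me3 in both lines with H3K79me2 in knockdown cells only, was found in 98 regions of similar length, with a median of 5998.5 bp. The knockdown H3K79me2 peaks there had a median of 5.15 RPM per kb and a median score of 83.8. The H3K79me3 log2 ratio per kb, knockdown over control, had a median of 0.40 in these 98 regions, against 0.59 in the 505 member regions, and 20 of the 98 lay on input peaks. H3K79me3 peaks were longer in knockdown cells in 46 of the 98 and in 328 of the 505. The 541 regions with H3K79me3 in both lines and no H3K79me2 were as long, with a median of 6083 bp, and had a median H3K79me3 density of 5.73 RPM per kb in knockdown and 3.77 RPM per kb in control cells. All 3 of these sets were longer, by their medians, than the 4011.5 bp median of those with both marks in both lines.

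On sequences other than chromosomes 1 to 22, X and Y, 12 of 251 merged regions had the peaks of a member region, and 103 had both marks in both lines. These were not part of the comparisons.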
